A study of Mus musculus with 76 samples.

Results

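The genes described here are the 125 protein-coding mouse genes whose symbols name a subunit of a voltage-gated sodium channel (Scn), a voltage-gated calcium channel (Cacna1, Cacnb, Cacna2d) or a potassium channel (Kcn followed by letters and a number). The rule uses the symbol alone, out of 21757 protein-coding genes with a promoter window, and no measured value. Not all of them encode voltage-gated channels. The 15 inward rectifier genes (Kcnj) and the 14 tandem-pore genes (Kcnk) encode potassium channels without a voltage sensor, and the Kcnn channels open on calcium. The 4 sodium beta genes, the 8 calcium beta and alpha2delta genes, the 12 Kcnab, Kcnip and Kcne genes and the Kcnmb genes encode auxiliary subunits, which attach to a channel and do not form its pore. RNA and chromatin were measured in the dissected diencephalon of C57BL/6J mouse embryos at the embryonic stages E11.5 and E17.5, named by days after conception, in wild type embryos and in embryos of a line in which the human sequence of the element hs754 replaces the mouse one on chromosome 13. That line came from CRISPR/Cas9 editing followed by backcrossing, and litters came from homozygous humanized crosses or homozygous wild type crosses. Each of the 4 stage and genotype groups has 4 polyA RNA-seq libraries. Each library pools embryos of a single litter, 6 for the early stage and 3 for the late stage, so the p-values given here measure the spread between such pools. ChIP-seq peak lists of the wild type number 2 per histone mark at E11.5 and 3 per mark at E17.5, with CTCF at E17.5 alone. Of the 125 members, 0 lie on chromosome 13.

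Voltage-gated channels open when the membrane depolarizes. Sodium channels carry the rising phase of the action potential, potassium channels repolarize the membrane and set its resting level, and calcium channels couple depolarization to transmitter release, gene regulation and burst firing. Each alpha subunit forms the pore, while beta, alpha2delta, KChIP and similar subunits change its gating and its delivery to the membrane. The thalamus and hypothalamus grow from the diencephalon, and thalamic relay neurons are known for T-type calcium channels, whose low threshold allows bursts. During embryonic neurogenesis dividing progenitors give way to differentiating neurons, which acquire these channels as they become excitable. Many developmental genes carry H3K27me3, the mark of Polycomb repression, at promoters that also carry H3K4me3, the mark of promoters open to transcription. H3K27ac marks active promoters and enhancers.

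The RNA libraries held 16414369 to 24272569 counts on genes. Wild type replicate 1 at E17.5 stood apart: its median correlation with the other libraries of its group over log-scale levels was 0.9409, against 0.985 or more within any group for the other 15 libraries. The counts of members that rose or fell and some log2 fold changes are therefore given with and without it. Other E17.5 wild type values, among them the levels per kilobase and the RNA results by promoter mark, include it. In replicate 1 the summed blood markers stood at 986 CPM and the microglia markers at 70.3 CPM, against 234 to 444 CPM and 32.8 to 34.9 CPM in the other 3 libraries of its group. Meninges and fibroblast markers summed to 492 CPM, against 274 to 314 CPM. Neuron markers differed in both directions: Tubb3 had 2630 CPM against 765 to 874, and Map2 had 1070 CPM against 2220 to 2890. Stmn2, at 1470 CPM, lay within the range of the rest. The part of these differences in the channel values of replicate 1 was not tested. All 10 diencephalon markers used to check the tissue were present, with a summed level of 1379 to 2002 CPM (counts per 1000000 counts on genes, after TMM scaling) in the E11.5 wild type libraries and 1461 to 1712 at E17.5. Other cell types changed with stage in the same tissue. In the wild type, 7 of 8 neuron markers rose and 0 fell, and their summed level went from 1894 to 2424 CPM at E11.5 to 6043 to 6974 CPM at E17.5. Of 8 progenitor markers 7 fell and 1 rose, and their sum went from 4450 to 5022 CPM to 947 to 1239 CPM, while 5 of 6 astrocyte markers rose, from a sum of 162 to 186 CPM to 465 to 518 CPM. The part of these shifts in the stage results was not tested. In bulk tissue, more cells of a type and more RNA per cell cannot be told apart.

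The promoters of 5 members are shown because they cover the contrasts that follow. Kcnd2 (ENSMUSG00000060882, chr6:21214616-21214865, plus strand) and Scn3b (ENSMUSG00000049281, chr9:40180241-40180490, plus strand) lost promoter H3K27me3 between the stages. Kcng4 (ENSMUSG00000045246, chr8:120362763-120363012, minus strand) gained it. Scn8a (ENSMUSG00000023033, chr15:100768527-100768776, plus strand) and Cacna1g (ENSMUSG00000020866, chr11:94365231-94365480, minus strand) had the highest H3K4me3 at both stages. Each run is the 250 bases before the annotated start in the mm39 genome (GRCm39), 5′ to 3′ on the gene's strand, with CpG dinucleotides in capitals.
Kcnd2: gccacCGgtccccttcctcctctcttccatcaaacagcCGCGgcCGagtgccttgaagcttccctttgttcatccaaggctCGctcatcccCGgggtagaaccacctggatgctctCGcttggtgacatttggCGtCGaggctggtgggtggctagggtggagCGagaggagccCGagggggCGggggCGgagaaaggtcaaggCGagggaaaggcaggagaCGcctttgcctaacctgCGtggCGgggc
Scn3b: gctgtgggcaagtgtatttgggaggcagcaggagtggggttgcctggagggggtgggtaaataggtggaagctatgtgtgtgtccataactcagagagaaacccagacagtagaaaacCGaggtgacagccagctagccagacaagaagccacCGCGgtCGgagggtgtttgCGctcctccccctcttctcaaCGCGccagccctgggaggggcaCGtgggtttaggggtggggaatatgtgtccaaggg
Kcng4: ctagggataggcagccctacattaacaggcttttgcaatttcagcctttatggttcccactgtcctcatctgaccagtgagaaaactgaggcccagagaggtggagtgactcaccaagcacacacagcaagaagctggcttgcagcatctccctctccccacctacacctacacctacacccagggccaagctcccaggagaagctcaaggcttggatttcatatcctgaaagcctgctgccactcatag
Scn8a: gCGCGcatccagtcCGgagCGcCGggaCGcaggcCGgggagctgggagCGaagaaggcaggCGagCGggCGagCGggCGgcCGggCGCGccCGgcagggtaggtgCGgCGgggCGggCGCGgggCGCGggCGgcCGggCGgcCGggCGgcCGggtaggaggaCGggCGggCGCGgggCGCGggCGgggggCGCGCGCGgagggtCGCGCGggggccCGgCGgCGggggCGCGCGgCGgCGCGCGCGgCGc
Cacna1g: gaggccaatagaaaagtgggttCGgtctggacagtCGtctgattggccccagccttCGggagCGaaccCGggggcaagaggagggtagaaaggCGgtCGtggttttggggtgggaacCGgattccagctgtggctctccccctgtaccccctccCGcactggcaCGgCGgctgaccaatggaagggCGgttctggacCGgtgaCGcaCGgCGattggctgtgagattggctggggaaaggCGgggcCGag
The Scn8a run holds 56 CpG, the Cacna1g run 18, the Kcnd2 run 17 and the Scn3b run 8, and the Kcng4 run holds 0.

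The first question was how the channel genes changed between E11.5 and E17.5 in wild type diencephalon. Most of those expressed rose, and few fell. The filter on low counts kept 105 of the 125 members among 18583 genes, and 87 of these rose and 5 fell in edgeR's quasi-likelihood test, at p-values adjusted by Benjamini-Hochberg, with 13 not called. Over all genes tested, 29% rose and 26.7% fell. With a fold change of at least 2 also required, 79 members rose and 3 fell, against 23.8% and 16.8% of all genes. The tested members had a median log2 fold change of 2.54, and all tested genes had -0.01. For 86 members every E17.5 library was above every E11.5 library, and for 4 every one was below. The same shares over all tested genes were not counted, so these 2 counts have no background beside them. Without E17.5 wild type replicate 1, 109 members were tested, of which 90 rose and 7 fell, against 36% and 36.3% of all genes. A member that passes the filter only through the stage where it is high had to differ, so these counts describe the tested members and not the 125. The other 20 members, with the highest CPM reached in any of the 16 libraries, were Scn7a at 3.64, Kcng3 at 1.58, Cacna1f at 1.52, Kcnk12 at 1.25, Scn4a at 1.21, Kcnv2 at 1.08, Kcnh3 at 1.05 and a further 13 at 0.979 or less (Kcna7, Kcna10, Kcne1, Kcnj1, Kcnj4, Kcnj15, Kcnk7, Kcnk15, Kcnk16, Kcnk18, Kcnmb1, Kcnmb3 and Scn10a). With no filter, 123 members had a fit, of which 89 rose and 7 fell. Kcna10, a shaker-related subunit, had 0 counts in the 8 wild type libraries. The summed level of the 125 members was 1146 to 1370 CPM in the E11.5 wild type libraries and 4790 to 6151 CPM at E17.5, and 112 of the 125 reached 1 CPM in some library.

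**Figure D1:**
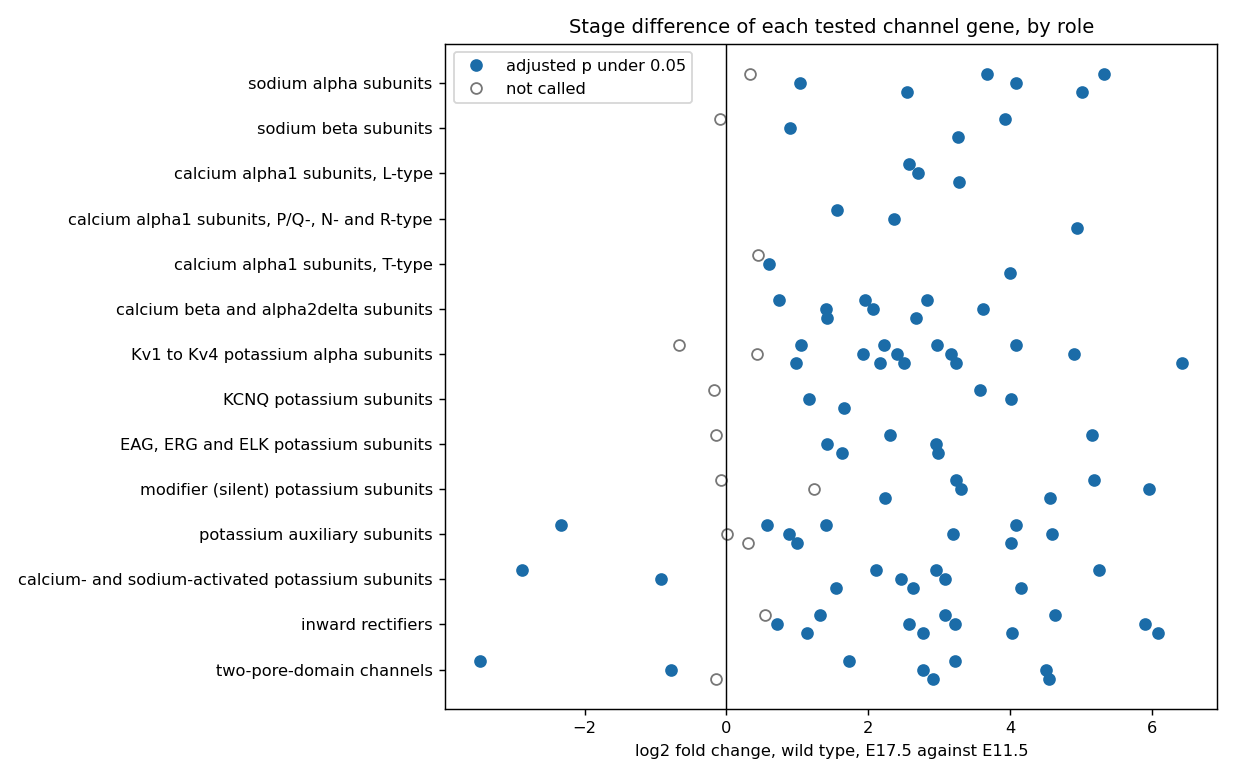
Log2 fold change of each tested member between E11.5 and E17.5 in wild type diencephalon, by role; each point is a gene, filled where it was called, and the line at 0 marks no change. The called points lie mostly to the right: 87 members rose and 5 fell, from -3.47 for Kcnk5 to 6.43 for Kcnc4.

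The sodium channel alpha subunits carry the inward sodium current. Of the 10, 7 were tested, 6 rose and 1, Scn11a, was not called. Scn2a, the main sodium channel of immature axons, had 8.66, 4.93, 11.9 and 5.35 CPM in the E11.5 wild type libraries and 100, 315, 262 and 324 CPM at E17.5. The lowest of the E17.5 values, 100 CPM, is replicate 1, and the stages did not overlap. Scn2a rose by a log2 fold change of 5.01 (SE 0.456, adjusted p = 7.77e-06), or 5.27 without that replicate. Scn1a, the channel of fast-spiking inhibitory neurons, had 3.69, 1.7, 3.69 and 1.54 CPM at E11.5 and 10.5, 50.7, 55.4 and 66 CPM at E17.5. All E17.5 values were higher, and replicate 1 was again the lowest. The log2 fold change of Scn1a was 4.09 (SE 0.561, adjusted p = 0.00013), or 4.42 without replicate 1. Scn9a, best known from sensory neurons, went from 2.61, 0.849, 2.63 and 1.42 CPM to 20.1, 86.6, 91.6 and 107 CPM, replicate 1 being the lowest at E17.5. Its log2 fold change was 5.33 (SE 0.573, adjusted p = 2.38e-05), the highest of the alpha subunits tested.

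Scn3a, the alpha subunit known for its high level in the embryonic brain, had 56.8, 28.3, 65.9 and 38.6 CPM at E11.5 and 101, 371, 298 and 344 CPM at E17.5, where replicate 1 was the lowest. Its log2 fold change was 2.54 (SE 0.413, adjusted p = 0.000416). Scn8a, later the main channel of the mature axon initial segment and node of Ranvier, had 48.7, 33.6, 56.9 and 45.1 CPM at E11.5 and 52, 125, 98.9 and 102 CPM at E17.5. Replicate 1 at E17.5 lies inside the E11.5 range of Scn8a, and the other 3 lie above it. The log2 fold change of Scn8a was 1.03 (SE 0.276, adjusted p = 0.00918), or 1.22 without replicate 1. Per kilobase of exon, the order at E11.5 was Scn3a at 4.57 ± 1.64 CPM per kb and Scn8a at 3.73 ± 0.783 (SD, n = 4), which do not differ beyond their spread, then Scn2a at 0.826 ± 0.348, Scn1a at 0.298 ± 0.134 and Scn9a at 0.189 ± 0.0896. At E17.5, with replicate 1 included, Scn2a (26.8 ± 11.1) and Scn3a (26.8 ± 11.8) were level, and Scn9a (7.69 ± 3.88), Scn8a (7.67 ± 2.49) and Scn1a (5.12 ± 2.72) followed within their spread of each other. Scn4a, the skeletal muscle subunit, had 55 counts over the 4 E11.5 libraries and 3 over those of E17.5, a ratio of 0.0555 with a 95% counting interval of 0.0111 to 0.171.

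**Figure D2:**
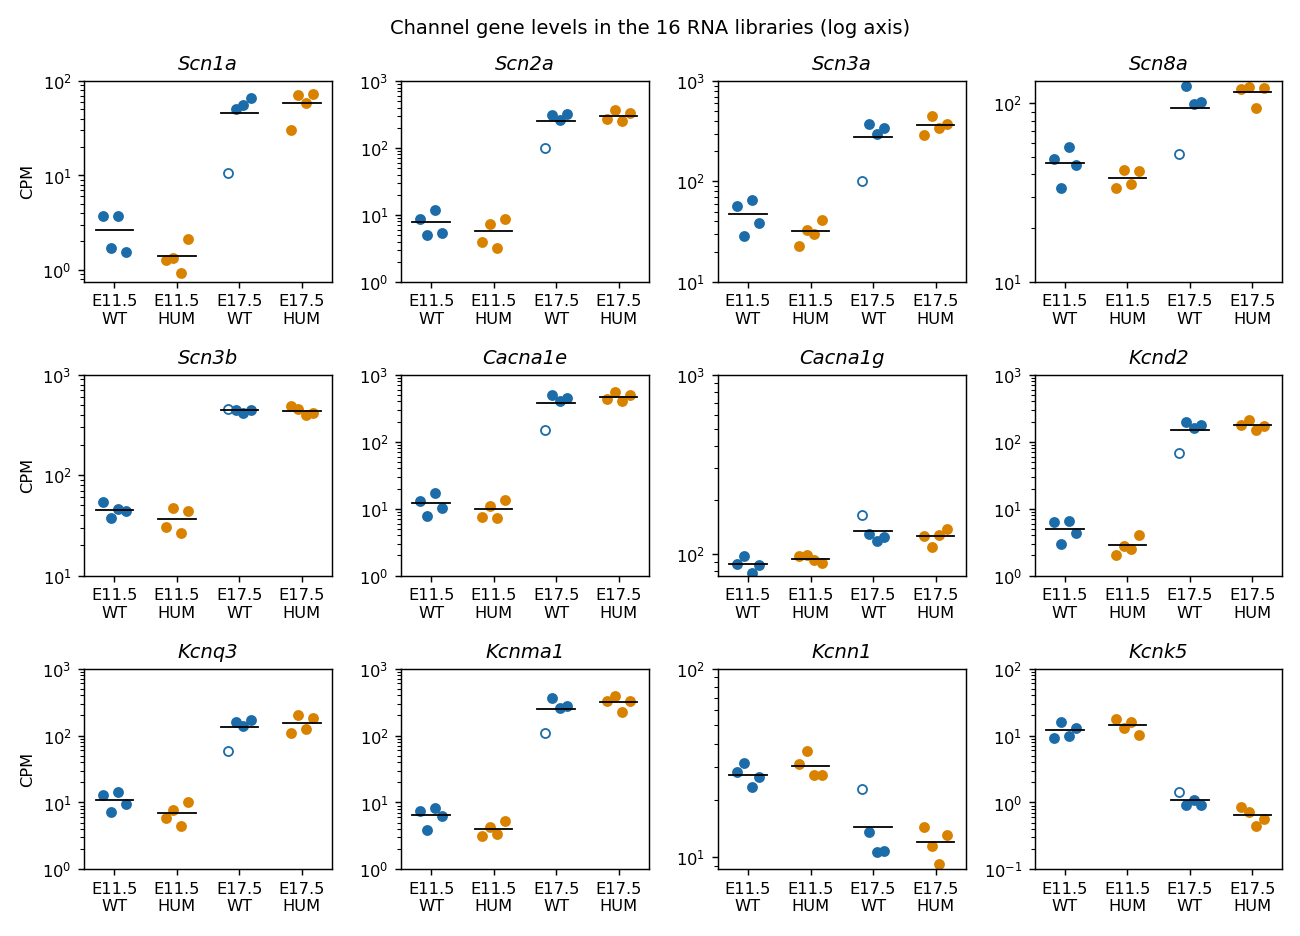
Level of 12 members in each RNA library by stage and genotype (WT, wild type, and HUM, humanized), in CPM on a log axis; each point is a library, the hollow circle is E17.5 wild type replicate 1, and the line is the mean of the 4 libraries. Scn1a, Scn2a, Cacna1e, Kcnd2 and Kcnma1 are higher in every E17.5 library of either genotype than in any E11.5 library, and Kcnk5 is lower.

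Of the 4 sodium beta subunits, which anchor the alpha subunit and shape its gating, 3 rose and 1, Scn4b, was not called. Scn3b had 54.4, 37.6, 46 and 43.9 CPM at E11.5 and 461, 447, 412 and 446 CPM at E17.5, with replicate 1 inside the range of the others. Its log2 fold change was 3.27 (SE 0.18, adjusted p = 4.77e-07). Per kilobase it was the highest of all members at E17.5, at 71.4 ± 3.35 CPM per kb (SD, n = 4), from 7.35 ± 1.13 at E11.5. Scn2b, at 11.7 to 18.9 CPM in the E11.5 libraries, rose by a log2 fold change of 0.90.

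All 3 presynaptic calcium channel alpha subunits (P/Q-, N- and R-type) rose. Cacna1e, the R-type subunit, had 12.9, 7.85, 17.2 and 10.4 CPM at E11.5 and 148, 506, 401 and 447 CPM at E17.5. The stages did not overlap, replicate 1 being the lowest at E17.5, and the log2 fold change was 4.94 (SE 0.429, adjusted p = 5.56e-06). Cacna1b, the N-type subunit that triggers transmitter release, rose by 2.36 (SE 0.196, adjusted p = 4.37e-06) and Cacna1a, the P/Q-type subunit, by 1.56 (SE 0.175, adjusted p = 3.15e-05). Per kilobase at E11.5, Cacna1b stood at 3.84 ± 0.422 CPM per kb and Cacna1e at 0.772 ± 0.256. At E17.5 they stood at 19.8 ± 3.55 and 24 ± 10.1 and did not differ beyond their spread. That spread includes replicate 1, which had 148 CPM of Cacna1e against 401 to 506 CPM in the rest, and they were not compared without it.

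The L-type subunits, which link depolarization to gene expression, rose in all 3 tested of 4: Cacna1d by a log2 fold change of 3.28 (SE 0.358), Cacna1c by 2.7 (SE 0.209) and Cacna1s by 2.58 (SE 0.48). Cacna1s is the skeletal muscle subunit and did not exceed 2.45 CPM in the wild type. The retinal Cacna1f was not tested. The T-type family, which drives thalamic bursting, split. Cacna1g was already high at E11.5, with 87.7, 97.8, 78.4 and 86.2 CPM, and had 165, 129, 118 and 124 CPM at E17.5. All E17.5 values were higher, replicate 1 most of all, and the log2 fold change was 0.60 (SE 0.169, adjusted p = 0.0114), or 0.47 without replicate 1. Cacna1i had 2.31, 2.65, 2.07 and 2.88 CPM at E11.5 and 64.4, 33.2, 31.8 and 31.1 CPM at E17.5, a log2 fold change of 4.00 (SE 0.298), or 3.66 without replicate 1. Cacna1h, at 45.3 to 54.4 CPM, was not called (0.45, SE 0.231, adjusted p = 0.12).

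All 8 calcium beta and alpha2delta subunits, which carry the pore to the membrane and set its current, rose. The largest log2 fold changes were 3.62 for Cacna2d4, which had reads in 1 of 4 libraries at E11.5, and 2.83 for Cacnb4 (SE 0.446, adjusted p = 0.000339). Cacnb3 was the highest member per kilobase at E11.5, at 28.9 ± 4.83 CPM per kb, and rose least of the 8, by 0.74 (SE 0.258, adjusted p = 0.0316). Its levels were 98.6, 107, 71.5 and 89.4 CPM at E11.5 and 245, 121, 129 and 120 CPM at E17.5. Replicate 1 stood apart at E17.5, and without it the log2 fold change was 0.41 (adjusted p = 0.0204). Leaving out E11.5 wild type replicate 1, 3 or 4 ended the call on Cacnb3, with log2 fold changes of 0.75, 0.62 and 0.70. Cacna2d2 rose by 1.95 and Cacna2d1, a target of gabapentinoid drugs, by 2.07.

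Among the delayed rectifier and A-type potassium alpha subunits of the Kcna, Kcnb, Kcnc and Kcnd families, 15 of 17 were tested, 13 rose and 2 were not called (Kcna1, the channel of juxtaparanodal axons, and Kcna5). Kcnc4, a fast-inactivating subunit of the family used in fast spiking, had 0.461, 0.053, 0.354 and 0.365 CPM at E11.5 and 44.3, 20.9, 22.7 and 23.1 CPM at E17.5. It was near absent at the early stage and present in every library of the late one, with a log2 fold change of 6.43 (SE 0.459, adjusted p = 1.72e-06), or 6.10 without replicate 1. Kcnd2, which carries the dendritic A-type current, had 6.31, 2.92, 6.57 and 4.38 CPM at E11.5 and 68.8, 199, 161 and 181 CPM at E17.5. The stages did not overlap, and the log2 fold change of Kcnd2 was 4.90 (SE 0.407, adjusted p = 4.24e-06). Kcnd3, its close relative, was higher per kilobase than Kcnd2 at E11.5 (3.05 ± 0.866 against 0.872 ± 0.298 CPM per kb) and lower at E17.5 (16.3 ± 4.94 against 26.3 ± 9.98), where the spreads overlap. Those E17.5 spreads include replicate 1, which had 68.8 CPM of Kcnd2 against 161 to 199 CPM in the rest, and were not compared without it. Kcnd3 rose by 2.4 (SE 0.301). Kcna1 went from 1.8 to 3.14 CPM at E11.5 to 0.575 to 2.49 CPM at E17.5 (-0.67, SE 0.412, adjusted p = 0.188), and the stages overlap.

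Of the 5 Kcnq genes, 4 rose and 1, Kcnq1, was not called. Reads of Kcnq1 without strand cannot be told from those of its antisense transcript Kcnq1ot1. Kcnq3, a subunit of the M channel that restrains repetitive firing, had 12.9, 7.27, 14.3 and 9.65 CPM at E11.5 and 59.6, 162, 137 and 170 CPM at E17.5, a log2 fold change of 3.57 (SE 0.365, adjusted p = 1.73e-05). The stages did not overlap, and E17.5 replicate 1 was the lowest of its stage. Without it the log2 fold change of Kcnq3 was 3.80. Kcnq5, another M-current subunit, rose by 4.01 (SE 0.351).

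Of the 8 EAG, ERG and ELK genes (Kcnh), 7 were tested, 6 rose and 1 was not called. Kcnh7 rose most, by a log2 fold change of 5.15 (SE 0.395, adjusted p = 2.56e-06), from 1.06 to 1.72 CPM to 19.5 to 62.3 CPM. Kcnh2, the ERG channel of the heart and brain, had 34.5, 31.5, 27.3 and 31.3 CPM at E11.5 and 50, 22.9, 20.8 and 19.5 CPM at E17.5. Replicate 1 was above every E11.5 library and the other 3 below them. The log2 fold change was -0.15 (SE 0.294, adjusted p = 0.69) with it and -0.59 (SE 0.131, adjusted p = 0.00149) without it. In the humanized libraries Kcnh2 fell by 0.71 on the log2 scale (adjusted p = 0.00055).

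The modifier subunits (Kcnf, Kcng, Kcns, Kcnv) form no channel alone and alter Kcnb channels. Of 10, 8 were tested, 6 rose and 2 were not called. Kcns1 had 0.0513, 0.159, 0 and 0 CPM at E11.5 and 5.54, 2.01, 3.18 and 3.03 CPM at E17.5, a log2 fold change of 5.96 (SE 0.672, adjusted p = 3.23e-05). It was at or near 0 in the early libraries of either genotype: the humanized ones held 0 counts at E11.5 and 150 at E17.5, at least 63-fold higher when 3 counts are allowed over the early group. Kcns2 rose by 5.18 (SE 0.259, adjusted p = 3.5e-07), from 0.53 to 0.961 CPM to 23.4 to 31.8 CPM. Of the 12 auxiliary genes, 11 were tested, 8 rose, 1 fell and 2 were not called. The KChIP genes, whose products bind Kcnd channels, all rose: Kcnip1 by 3.20, Kcnip2 by 4.08, Kcnip3 by 1.40 and Kcnip4 by 4.02. Kcne2, also known from choroid plexus epithelium, rose by 4.59 (SE 0.621, adjusted p = 0.00012). Of 6 choroid plexus markers 3 rose and 1 fell. Ttr, which encodes transthyretin, went from 0.0811 to 0.974 CPM at E11.5 to 139 to 295 CPM at E17.5 (9.18), and Prlr, the prolactin receptor gene, from 0 to 0.053 CPM to 3.66 to 13.9 CPM (7.94). Kl rose by 1.43, while Otx2, which is also a gene of the early neuroepithelium, went from 274 to 333 CPM to 32.6 to 41 CPM (-3.09). Their part in the Kcne2 value was not tested. Kcnab2 stood at 19.5 to 25.2 CPM at E11.5 and at 53.4, 20, 21.6 and 18.7 CPM at E17.5 (0.30, adjusted p = 0.456), replicate 1 being apart.

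Of the 12 calcium- and sodium-activated subunits, 10 were tested, 8 rose and 2 fell. Kcnma1, the large-conductance channel opened by calcium and voltage together, had 7.54, 3.93, 8.29 and 6.24 CPM at E11.5 and 108, 362, 258 and 277 CPM at E17.5. The stages did not overlap, and the log2 fold change was 5.26 (SE 0.417, adjusted p = 3.14e-06). Kcnt1, a sodium-activated channel, had 1.8 to 2.36 CPM at E11.5 and 33.6 to 42.5 CPM at E17.5 and rose by 4.15 (SE 0.198, adjusted p = 3.12e-07), with replicate 1 inside the range of the rest. The Kcnn genes divided: Kcnn2 (2.11) and Kcnn3 (2.46) rose, while Kcnn1 and Kcnn4 fell.

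Of the 15 inward rectifiers, which hold the resting potential and include the G-protein-gated and ATP-sensitive channels, 12 were tested, 11 rose and 1, Kcnj14, was not called. Kcnj16 rose most, by a log2 fold change of 6.09 (SE 0.636, adjusted p = 1.98e-05), from 0 to 0.202 CPM to 2.35 to 7.67 CPM. The G-protein-gated subunits all rose: Kcnj6 by 5.90 (SE 0.367), Kcnj3 by 4.03 (SE 0.399), Kcnj5 by 3.08 (SE 0.262) and Kcnj9 by 2.57 (SE 0.196). Kcnj10, the channel of astrocytes and other glia, was the highest of the group per kilobase at both stages (1.9 ± 0.152 and 4.77 ± 0.544 CPM per kb) and rose by 1.32 (SE 0.171). Kcnj8, a vascular ATP-sensitive subunit found in pericytes, rose by 0.72 (adjusted p = 0.0393), with replicate 1 at 14.8 CPM and the other E17.5 libraries at 7.12 to 8.1 CPM. Without replicate 1 its log2 fold change was 0.40 (adjusted p = 0.0458). In the same comparison 3 of 6 endothelium and pericyte markers rose and 0 fell, with a sum of 226 to 274 CPM at E11.5 and 323 to 397 CPM at E17.5, and their part in the Kcnj8 value was not tested.

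The tandem-pore channels carry the background potassium leak. Of 14, 9 were tested, 6 rose, 2 fell and 1 was not called. Kcnk3 rose by 4.51 (SE 0.509, adjusted p = 3.32e-05). Replicate 1 had 37.3 CPM against 11.3 to 13.7 CPM in the other E17.5 libraries, and without it the log2 fold change was 3.92. Kcnk4 had 3 counts over the E11.5 libraries and 82 at E17.5, a ratio of 27.8 with a 95% counting interval of 9.19 to 138. Kcnk10 was among the highest members at E11.5, at 10.6 ± 1.14 CPM per kb, and 9.65 ± 2 at E17.5, and was not called (-0.15, SE 0.194, adjusted p = 0.537).

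The 5 members that fell were Kcnk5, Kcnn4, Kcne3, Kcnn1 and Kcnk6. Kcnk5, an acid-sensitive leak channel, had 9.18, 16, 9.96 and 13 CPM at E11.5 and 1.41, 0.924, 1.09 and 0.927 CPM at E17.5. All late values were below all early ones, and the log2 fold change was -3.47 (SE 0.266, adjusted p = 2.53e-06). Kcnn4, the intermediate-conductance channel of dividing and immune cells, had 1.28, 1.8, 1.42 and 0.811 CPM at E11.5 and 0.209, 0.163, 0.249 and 0.0843 CPM at E17.5 (-2.89, SE 0.426, adjusted p = 0.000212). It was low at both stages, and the stages did not overlap. Kcne3 fell by 2.34 on the log2 scale from levels under 1 CPM. Kcnn1 had 28.3, 31.4, 23.5 and 26.5 CPM at E11.5 and 22.9, 13.6, 10.7 and 10.8 CPM at E17.5, where replicate 1 was the highest. It fell by 0.93 (SE 0.258, adjusted p = 0.0108), and by 1.25 without that replicate. Kcnk6 (-0.79, SE 0.291, adjusted p = 0.0401) lost its call under 9 of 14 alternatives.

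The same contrast in the humanized libraries, which share no sample with the wild type ones, called 83 of 104 tested members risen and 7 fallen, against 38.2% and 39.5% of 18781 genes. The members' median log2 fold change was 2.55. Of the members that rose, 82 were called in both genotypes, which is 94.3% of the wild type list and 98.8% of the humanized list. Over all genes tested, 5033 rose in both, which is 93.3% and 70.1% of lists of 5393 and 7175. Cacna2d4, Kcnab3, Kcne5, Kcnj8 and Kcnk4 were called in the wild type alone and Scn7a in the humanized alone. Of these, Cacna2d4 and Kcnk4 did not pass the filter in the humanized libraries, and Scn7a did not pass it in the wild type. The difference between genotypes is tested by the interaction given further on. All 5 members that fell in the wild type also fell in the humanized libraries, along with Kcnab2 and Kcnh2.

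Genes that act with these channels were listed separately. All 24 were tested in the wild type, 20 rose and 2 fell. The largest rises were those of Dpp10, a Kcnd partner, with a log2 fold change of 6.65, Sptbn4, the spectrin of the axon initial segment, with 4.27, and the sodium leak channel Nalcn with 3.47. The pacemaker channel gene Hcn2 rose by 3.12. Those that fell were Cntn2, an axonal adhesion protein (-1.74), and Rest (-1.5, adjusted p = 0.00104), the repressor of neuronal genes that binds the RE1 element. Rest had 45, 47.7, 63.4 and 66.4 CPM at E11.5 and 10.2, 22.7, 23.5 and 22.9 CPM at E17.5, so the stages did not overlap and replicate 1 was the lowest.

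The next question was which marks the members' promoters carried. A promoter window is 1000 bp on each side of the annotated start, and a promoter counts as marked where a peak overlaps it in every wild type list of that stage. The channel promoters combined frequent H3K27me3 with frequent H3K4me3 at E11.5. At E11.5, 88 of 125 members (70.4%) had H3K27me3, against 19.4% of 21757 promoters, and by E17.5 the mark was on 73 (58.4%), against 19.1%. This drop depends on asking for a peak in every list. With a peak in at least 1 list, H3K27me3 was on 93 members at E11.5 (74.4%, against 22.8% of all promoters). By E17.5 it was on 92 (73.6%, against 26.1%). H3K4me3 was present at 97 (77.6%) and 98 (78.4%), against 63.5% and 63.6%. H3K27ac was present at 30 (24%) at E11.5, against 47.3%, and at 75 (60%) at E17.5, against 57%. The H3K27ac antibody is known to bind an acetylated lysine of H2B as well. The number of peaks per wild type list also rose for H3K27ac, from 32418 to 36150 at E11.5 to 62720 to 77419 at E17.5, and for H3K27me3, from 13850 to 19166 to 27452 to 43700. For H3K4me3 it was 23471 to 25080 at either stage. With 2 lists against 3, an exact test for a single promoter cannot go below p = 0.1, so no promoter was called.

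H3K4me3 and H3K27me3 together marked 86 members (68.8%) in the early lists, against 17.7% of all promoters, and 68 (54.4%) in the late ones, against 16.3%. H3K4me3 in all lists, with H3K27me3 not in all, marked 11 (8.8%) and 30 (24%), against 45.8% and 47.4%. Here and below, a promoter with a peak in only some lists counts as without that mark. Of the 30, Cacna1a had H3K27me3 in 2 of 3 late lists and Cacna1d in 1, while others, such as Kcnd2, had it in 0. H3K27me3 without H3K4me3 marked 2 (1.6%) and then 5 members (4%), against 1.71% and 2.84%. Neither mark was on 26 (20.8%) and then 22 (17.6%), against 34.8% and 33.5%. H3K27ac was also present at 24 of the 86 members with both marks at E11.5 (27.9%), against 36.8% of all promoters with both, and at 45 of the 68 at E17.5 (66.2%), against 61.3%. The lists come from whole tissue, so these counts do not show that 2 marks sat on the same cells' chromatin. By role, the dual mark at E11.5 covered 15 of 17 Kcna to Kcnd genes, 8 of 10 modifier genes, 7 of 8 Kcnh genes, all 5 Kcnq genes, 10 of 15 inward rectifiers and 3 of 10 sodium alpha genes. CTCF, the insulator protein, had a peak at 52 members (41.6%) at E17.5, against 33.6% of all promoters.

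**Figure D3:**
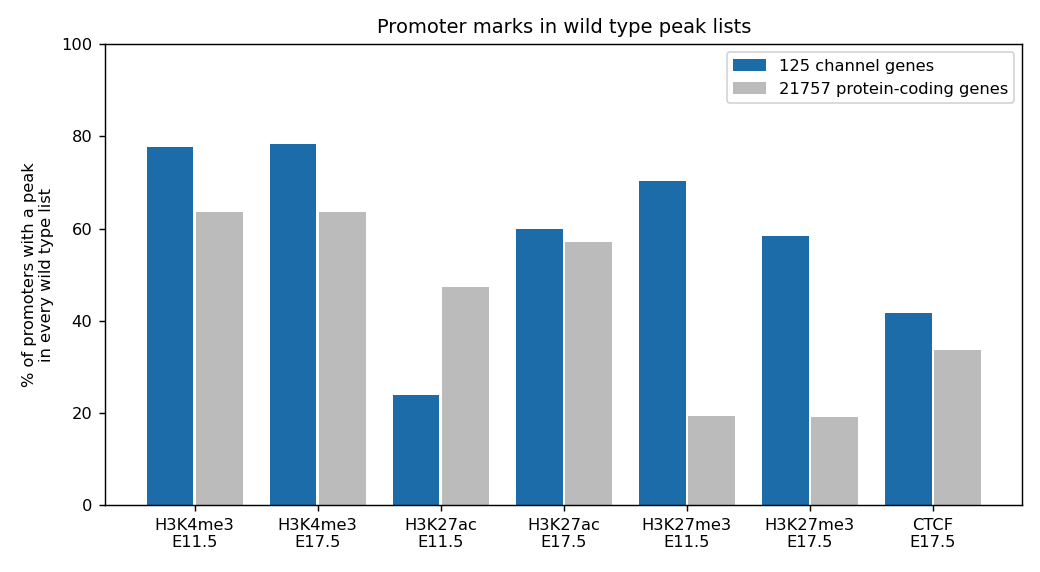
Share of promoters with each mark in all wild type lists of a stage, in percent, for the 125 members and for all 21757 protein-coding genes. H3K27me3 covers 70.4% of the members at E11.5 and 58.4% at E17.5, against 19.4% and 19.1% of all, and H3K27ac on the members goes from 24% to 60%.

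Peak height, as the fold enrichment over local background that the authors' peak caller reports, also changed on the members. For the 68 members with H3K27me3 in all 5 lists, the median height was 8.2 and 7.32 in the E11.5 lists and 5.05, 4.66 and 4.77 in those of E17.5. Of these, 48 (70.6%) were lower in every E17.5 list than in either E11.5 list and 5 (7.35%) were higher. Over the 3337 promoters with the mark in all 5 lists, the shares were 45.6% and 21.1%. H3K4me3 moved the other way: its median over 96 members went from 24.5 and 24.4 to 46.5, 44.2 and 47.1, and 71 members (74%) were higher in every E17.5 list, against 34.4% of all, while 2 (2.08%) were lower, against 7.17%. H3K27ac over 28 members went from 8.24 and 8 to 22.6, 24.9 and 26.4, and 26 members (92.9%) were higher, against 78.1% of all, and 0 were lower, against 3.06%.

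H3K27ac was gained at 39 members (31.2%), in no list at E11.5 and in all 3 at E17.5, against 7.52% of all promoters. With the lists cut to the same number of peaks, the gain was at 33 members, against 5.17%. With the lists of both genotypes and chromosome 13 left out, the gain was at 31 members, against 4.42%. Kcnip1 is not among those 31, as it had H3K27ac in the E11.5 humanized lists. All 39 passed the filter and were called risen in the RNA, with a median log2 fold change of 3.28. Of all tested genes that gained the mark, 69.7% rose, with a median of 1.96. The 39 include Scn1a, Scn9a, Cacna1d, Cacna1e, Cacna1i, Kcnc4, Kcnh7, Kcnj6, Kcnk3 and Kcnip1. At Kcnk3 the 3 E17.5 heights were 20.2, 11.9 and 24.7, and its H3K27me3 went from 7.02 and 6.11 to 4.4, 3.83 and 3.25. Of the 28 members with H3K27ac at both stages, 23 rose and 1, Kcnn1, fell, with a median log2 fold change of 1.59, against -0.10 for all genes of that kind. Without the mark in any list at either stage were 37 members (29.6%), against 38.8% of all promoters, of which 22 were tested and 13 rose (59.1%, against 41.8% of the tested genes of that kind). Kcns1 is among them: its H3K27me3 stood at 14 and 14.5 in the early lists and at 13.2, 10.7 and 10.5 in the late ones, while its RNA rose.

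**Figure D4:**
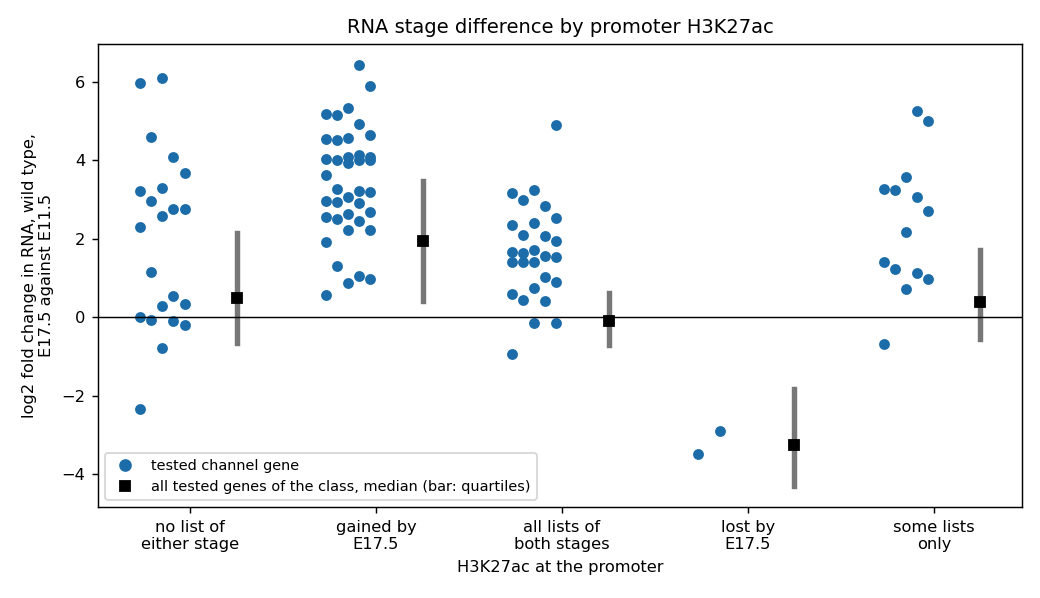
Log2 fold change of RNA between E11.5 and E17.5 in the wild type for members grouped by promoter H3K27ac at the 2 stages; each point is a tested gene, the square is the median of all tested genes of that kind and the bar their quartiles. The 39 members that gained the mark lie above 0 at a median of 3.28, and the 2 that lost it, Kcnk5 and Kcnn4, lie below.

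H3K27me3 was lost at 5 members, in both lists at E11.5 and in none at E17.5, against 1.69% of all promoters, and gained at 3, against 2.53%. Those that lost it were Kcna3, Kcnb2, Kcnd2, Kcnmb4 and Scn3b, and all 5 rose, as did 72.9% of all tested genes that lost the mark. At Kcnd2, whose promoter run is printed above, H3K27me3 was 3.41 and 3.33 at E11.5 and absent later, while H3K27ac went from 4.81 and 5.14 to 42.5, 46.8 and 31.6. At Scn3b, H3K27me3 was 3.96 and 3.5 and then absent, and H3K4me3 went from 18.3 and 13 to 47.4, 43.4 and 50.9. These were low peaks beside the median of 8.2 and 7.32, and the number that lost the mark moves with the threshold, to 18 members (2.01% of all promoters) at a -log10 q of at least 5 and 13 (2.68%) with lists of equal length. The 3 that gained H3K27me3 were Kcng4, Kcne1 and Kcnj15. None had H3K4me3 at either stage, and the Kcng4 run above has 0 CpG. Kcng4 rose all the same, from 0.284 to 0.318 CPM to 1.9 to 5.49 CPM (3.24, SE 0.436, adjusted p = 0.000116), and replicate 1 had the 5.49 CPM. Without it the log2 fold change was 2.74. Kcne1 had 11 counts at E11.5 and 0 at E17.5, at least 3.6-fold lower when 3 counts are allowed over the late group.

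H3K27ac was lost at 2 members, Kcnk5 and Kcnn4, against 0.529% of all promoters, and they had the largest falls in RNA among the tested members. At Kcnk5, H3K27ac was 7.34 and 4.6 at E11.5 and absent at E17.5, while H3K27me3 went from 3.4 and 3.47 to 8.19, 6.79 and 7.6. H3K4me3 stayed, at 30.9 and 37.2 and then 27.1, 30.7 and 38.2. Kcnn4 lost H3K4me3 (5.84 and 3.99) as well as H3K27ac (7.85 and 9.59) and had no H3K27me3 in any list, and it was the only member of the 125 to lose H3K4me3. Kcnh6 and Kcnk15 gained H3K4me3, as 0.671% of all promoters did, and 0.418% lost it. Kcne3 and Kcnk6, which also fell, had H3K27me3 at 8.3 or more in all 5 lists and no H3K27ac in any. Kcnn1 kept H3K27ac, from 17.8 and 30 to 33.9, 43.2 and 33.6.

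Some sodium alpha genes lie in a cluster. Scn3a, Scn2a, Scn1a, Scn9a and Scn7a span chr2:65287462-66615367 (1.33 Mb). Within this cluster, Scn2a, Scn3a and Scn7a had no H3K27me3 peak in any of the 5 lists. Scn1a had a peak in 1 of 2 early and 2 of 3 late lists, and Scn9a in 2 of 2 and 1 of 3. Scn8a, on chromosome 15, had the mark in all lists, at 6.21 and 6.28 and then 3.55, 3.15 and 2.72. H3K4me3 was higher in every E17.5 list at these genes of the cluster: Scn2a went from 9 and 10.9 to 29.9, 43.5 and 36.7, Scn9a from 10.7 and 18 to 47.9, 48.7 and 44.6, and Scn1a from 23.4 and 28.1 to 49.7, 41 and 43.5. At E17.5 CTCF peaks stood at the promoters of Scn1a (44.7, 23.7 and 19.3), Scn2a (36.3, 34.3 and 38.9) and Scn3a (42.8, 28.9 and 22.4), and none at Scn9a.

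In sequence, the members' promoters were a little richer in G and C than most. Over 250 bases before and 50 after the start, the median GC content was 59.3% against 54.3% for all 21757, and 51 members (40.8%) against 39.5% had at least 50% GC with an observed to expected CpG ratio of at least 0.6. On either strand, TATAAA was present in 5 members (4%) against 13.2%, and GGGCGG in 62 (49.6%) against 42.5%. The core of the RE1 element that Rest binds was searched as CAGCACC, any 2 bases and GGACAG, on both strands within 1000 bp of the start. With at most 1 mismatch in the 13 letters it was found at 5 members (4%) and at 1.42% of all promoters, and with at most 2 mismatches at 27 (21.6%) and 12.5%. The 5 are shown as the closest matches, on the strand of the match in mm39, with the letters that match in capitals.
Kcnh4: CAGCACCctGGACAG
Kcnk12: CAGCACCgcGGACAG
Scn3b: CAGCACCacGGACAG
Kcna5: CAGCAgCaaGGACAG
Kcng3: CAGCtCCcgGGACAG
They lie at chr11:100649837-100649851 (minus strand), chr17:88106014-88106028 (plus strand), chr9:40181040-40181054 (minus strand), chr6:126512517-126512531 (plus strand) and chr17:83938970-83938984 (plus strand). The match of Scn3b is 549 bases after its start. Of these genes Scn3b and Kcnh4 rose, Kcna5 was not called (0.42, adjusted p = 0.201), and Kcnk12 and Kcng3 were not tested. A match is a run of letters, and binding was not measured.

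The last question was whether humanized libraries differed from wild type ones in these genes. By the quasi-likelihood test of edgeR, 0 of 92 tested members passed the adjusted threshold at E11.5 (0% of 17816 genes), 0 of 105 at E17.5 (0% of 18763 genes) and 0 of 111 in the interaction of genotype and stage (0% of 20234 genes). DESeq2 called 0 members in any of the 3, and 2, 1 and 0 genes in all. In simulated counts with the spread of these libraries, the edgeR test recovered 82.1% of 2-fold changes at E11.5 and 16.4% at E17.5. For 1.5-fold changes the shares were 19.4% and 0%. The counts of 0, above all at E17.5, therefore do not show that the genotypes were alike. At an unadjusted p under 0.05 the members numbered 11 (12%, against 5.94% of all genes), 0 (against 1.1%) and 9 (8.11%, against 7.96%). These counts depended on single libraries. At E11.5 they were 4 members (4.3%, against 2.2% of all genes) without wild type replicate 3, 5 without humanized replicate 1, 6 without humanized replicate 3 or wild type replicate 1, 15 (16.1%, against 21.9%) without humanized replicate 4 and 17 (17.9%, against 21.6%) without wild type replicate 2. At E17.5 they were 2 without wild type replicate 2, 1 without wild type replicate 4 and 0 without any other. In the interaction they were 6 without E11.5 humanized replicate 1, E11.5 wild type replicate 3 or E17.5 humanized replicate 2. They were 14 there without E17.5 humanized replicate 1 or wild type replicate 4, and 17 without E11.5 humanized replicate 4 or wild type replicate 2 of either stage (15.2% and 15.3%, against 14.2% to 18.2% of all genes). The members' median log2 difference, humanized over wild type, was -0.13 at E11.5, where 63% of tested members were below 0 against 49.6% of all genes, and -0.04 at E17.5, where 54.3% were below 0 against 52.5%. Leaving out 1 library gave medians of -0.19 to -0.10 at E11.5 and of -0.07 to 0.02 at E17.5, where the sign turned without wild type replicate 2 or humanized replicate 3.

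Of the 11 at E11.5, 10 were lower in the humanized libraries (Cacna1c, Cacna1d, Cacna2d1, Scn1a, Scn3a, Kcna2, Kcnd2, Kcnh8, Kcnma1 and Kcnq3) and 1 was higher (Kcnj5). Cacna1c, the L-type subunit of heart and brain, had 19.5, 15.6, 20.2 and 18.4 CPM in the wild type and 15.1, 14.4, 13.5 and 14.4 CPM in the humanized libraries. All humanized values were below all wild type ones, as for 0.892% of all genes, and the log2 difference was -0.39 (SE 0.116, adjusted p = 0.577). Kcnj5, a G-protein-gated rectifier, had 0.923, 0.849, 1.47 and 1.14 CPM in the wild type and 1.65, 2.15, 1.86 and 1.68 CPM in the humanized libraries, where all were higher, as for 1.61% of all genes. Cacna1d had 9.38, 5.46, 10.5 and 6.29 CPM against 4.19, 4.89, 4.92 and 5.82 CPM, which overlap (-0.69). In the 4 wild type libraries the summed neuron markers were 2401, 1894, 2424 and 2008 CPM, and in the humanized ones 1828, 2263, 1523 and 2253 CPM. The median log2 difference of these 8 markers was -0.30, from -0.73 for Snap25 to 0.085 for Tubb3, and none was called. Their part in the lower values was not tested.

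At E17.5 Kcnk5 had 1.41, 0.924, 1.09 and 0.927 CPM in the wild type and 0.854, 0.728, 0.45 and 0.573 CPM in the humanized libraries, all lower, as for 0.73% of all genes, with a log2 difference of -0.74 (adjusted p = 0.808). The next lowest p-values belonged to Kcns1 (-0.66) and Kcnj8 (-0.48), whose libraries overlap. In the interaction, the stage change of Kcnj5 was smaller in the humanized libraries by a log2 difference of -0.98 and that of Cacna1d larger by 0.997 (adjusted p = 0.462). Kcng3 had the largest difference, 3.58, on 2 counts in the E11.5 humanized libraries. Without E17.5 wild type replicate 1 the log2 difference was -0.59 for Kcnk5, -0.34 for Kcns1 and -0.17 for Kcnj8, and in the interaction -0.93 for Kcnj5, 0.76 for Cacna1d and 3.32 for Kcng3, with 0 members called in either.

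**Figure D5:**
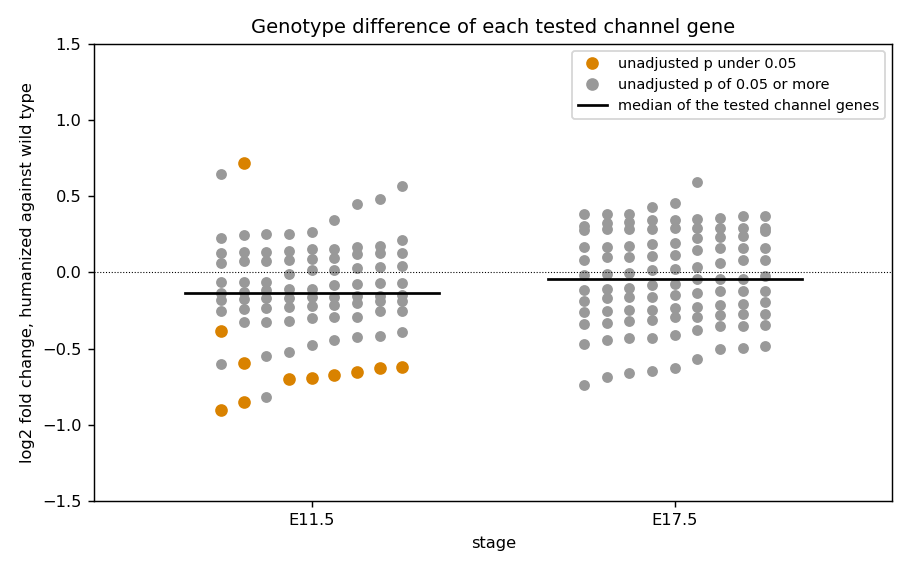
Log2 difference between humanized and wild type libraries for each tested member at E11.5 and at E17.5, each point a gene, coloured where the unadjusted p is under 0.05, and the line is the members' median. None was called, and the medians are -0.13 at E11.5 and -0.04 at E17.5.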

How the data were processed

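Per the study's methods and the submitters' processing notes, the authors aligned RNA-seq reads to mm39 with STAR 2.7.9a and deposited unnormalised read counts per gene, without strand and per strand. They aligned ChIP-seq reads with Bowtie2 2.4.2 and called peaks in each sample against input with MACS2 2.2.7.1. The deposited peak lists give a fold enrichment over background (a ratio) and a -log10 q for each peak. H3K27me3 peaks are in broad-peak form, with caller settings not given in the sources used here.

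The unstranded counts were used. Reads on no single gene, 48.1% to 58.4% of a sample, were left out. Depth was 16414369 to 24272569 counts per sample, and counting intervals cover counting error only. Of 56923 gene IDs, 56236 (98.8%) matched GENCODE release M39, from which gene names, starts and exon lengths came. The strand column that holds 96.2% of strand-assigned counts served as an alternative, since reads without strand cannot separate a gene from an antisense neighbour (Kcnq1ot1, Kcnd3os, Kcnab3os, Kcnmb4os1, Kcnmb4os2).

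Counts were tested with edgeR 4.0.16 in R 4.3.3 (filterByExpr, TMM, quasi-likelihood test, Benjamini-Hochberg over all genes tested, called at an adjusted p under 0.05), after a check on simulated data. Each contrast was fitted on its own samples: E17.5 against E11.5 in each genotype (8 libraries), humanized against wild type at each stage, and their interaction (16). Alternatives were DESeq2 1.42.0, its size factors, no low count filter, the strand column, one fit of all samples, a replicate block, a 2-fold rule and each sample left out. Peaks were overlapped with promoter windows of 1000 bp on each side of the start of the Ensembl canonical transcript, in Python 3.11.15 with numpy 2.4.6. As a check, the marked promoters of each wild type list were counted again with bedtools 2.31.1. Alternatives for the peaks were a -log10 q of at least 5, 50% overlap, windows of 500 and 2000 bp and any annotated start. Others were a peak in at least 1 list, equal numbers of peaks, both genotypes and each list left out.

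The members and lists were chosen with earlier results of these data known. Genes named with full statistics were, by rule, in each role the 2 largest called rises and falls and the highest level per length at each stage, 8 fixed genes (among them Scn1a, Scn2a, Scn3a, Scn8a, Cacna1g, Kcnq3 and Rest), the 3 lowest p-values of each genotype comparison and of the interaction, and the members that gained or lost H3K27me3. Promoter sequences were those of the 3 of the last with the largest fold change and of the 2 with the highest H3K4me3. Other members are named where a count of few genes or a role would otherwise be unnamed, and those were chosen after their values were seen. Humanized peak lists entered one alternative alone, and input samples were not used here. Some members that the rule takes are not reported here.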

Additional observations from a re-analysis of the deposited data

Results flagged for a closer look

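Among the 55 named genes, 218 sets of 4 libraries of a group were tested for a library that stood apart from the other 3 by Dixon's criterion, and 16 values did. Chance gives about 5% of such sets. Of the 16 values, 9 belong to E17.5 wild type replicate 1. In that library Cacna1i had 64.4 CPM (31.1 to 33.2 CPM in the other 3), Cacnb3 245 (120 to 129), Kcnc4 44.3 (20.9 to 23.1), Kcng4 5.49 (1.9 to 2.36), Kcnh2 50 (19.5 to 22.9), Kcnj8 14.8 (7.12 to 8.1) and Kcnk3 37.3 (11.3 to 13.7), all high. Cacnb4 had 14.9 CPM (44.3 to 48.5) and Rest 10.2 CPM (22.7 to 23.5), both low.

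The other 7 values were spread over 6 libraries. At E11.5 in the wild type, Cacna2d4 had 0.256 CPM in replicate 1 and 0 in the rest. At E11.5 in the humanized libraries, replicate 3 had 6.47 CPM of Kcnip1 (8.74 to 9.02) and 56.9 CPM of Kcnk10 (80.9 to 85.8), replicate 1 had 0.973 CPM of Kcnj15 (0.451 to 0.517), and replicate 4 had 0.082 CPM of Kcng3 against 0 in the rest. At E17.5 in the humanized libraries, replicate 3 had 94.8 CPM of Scn8a (121 to 123) and replicate 1 had 0.107 CPM of Kcne1 against 0 in the rest. The values of Cacna2d4, Kcng3 and Kcne1 rest on a few counts. No difference of stage effects between genotypes passed the interaction test for any member.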

How the results depend on the processing

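Over the alternatives at an adjusted p under 0.05, 85 to 91 members rose and 4 to 7 fell in the wild type, and 82 to 88 rose and 6 to 10 fell in the humanized libraries. Of these, leaving out a library gave 86 to 90 and 4 to 7 in the wild type and 82 to 86 and 6 to 9 in the humanized. Requiring a 2-fold change left 3 fallen in the wild type and 4 in the humanized libraries, and the strand column gave 87 risen and 5 fallen in the wild type. The genotype comparisons and the interaction gave 0 under every alternative run. With the replicate number as a block, 85 members rose and 5 fell in the wild type, 82 rose and 7 fell in the humanized libraries, and 0 were called for genotype. In no comparison did all 4 same-number pairs correlate above 0.1 in their deviations, so the numbers are not taken to pair the samples: the values were 0.0186, -0.55, 0.394 and 0.0685 between the wild type stages and 0.54, 0.584, 0.0897 and 0.225 between genotypes at E17.5. There the block moved the genes at an unadjusted p under 0.05 from 207 to 717 and the members from 0 to 3, with 0 called.

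Among the named genes, Kcnh2 turned to a log2 fold change of 0.000307 without E17.5 wild type replicate 4 and was called without replicate 1, at -0.585. Kcnk6 lost its call under 9 of 14 alternatives and Cacnb3 under 3. For promoters, a -log10 q of at least 5 left 45 members with H3K27me3 at E17.5 and 0 that lost H3K4me3, and gave 18 that lost H3K27me3. Equal numbers of peaks gave 13 that lost it. Leaving out a list gave 5 to 10 that lost H3K27me3 and 3 to 5 that gained it. H3K27ac was lost at 4 members with any annotated start and at 1 with the lists of both genotypes, which also left 1 gain of H3K27me3. The cause was not tested. Of the named genes' values under the alternatives, 833 kept their direction and call, and the remaining 236 counts moved less than those given here. Depth limits Kcne1, Kcns1, Kcnk4 and Scn4a, whose lower stage rests on few or no counts.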

Other observations

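Among the partner genes, Fgf12, a regulator of sodium channel inactivation, rose in the wild type by a log2 fold change of 3.31 and Cacng2, an AMPA receptor auxiliary subunit related to the calcium channel gamma subunits, by 3.23. Cacng7 and Fgf11 were not called. The summed level of the 24 partner genes went from 1250 to 1514 CPM at E11.5 to 2590 to 3398 CPM at E17.5 in the wild type.

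Several marker lists behind the tissue check also moved with stage in the wild type. Of 6 oligodendrocyte lineage markers 5 rose, of 6 meninges and fibroblast markers 4 fell and 2 rose, and of 6 blood markers 2 fell and 1 rose. Of 6 microglia markers 1 rose. Of 10 diencephalon markers 6 fell and 1 rose, and of 6 telencephalon markers 4 rose and 2 fell, with a telencephalon sum of 43.2 to 61.5 CPM at E11.5 and 69 to 113 CPM at E17.5. Of 6 skeletal and heart muscle markers 3 were detected, with a sum of 3.71 to 7.23 CPM over the wild type libraries, beside which stand the low values of Cacna1s and Scn4a.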
